A study of Mus musculus with 6 samples.

Results

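The 10 glucocorticoid-responsive genes and receptors examined here are Nr3c1, Nr3c2, Fkbp5, Sgk1, Tsc22d3, Zbtb16, Errfi1, Cdkn1a, Hsd11b1 and Plin4. They were taken by symbol. All 10 were among the 35275 genes of the deposited tables, and all 10 were among the 16137 genes that passed the filter on low counts. They were measured by RNA-seq of poly(A) RNA from whole spinal cord of C57BL/6 mice, in 3 Sox2 cKO and 3 control (Ctrl) libraries. The Sox2 cKO mice carry mGfap-Cre and 2 floxed alleles (mGfap-Cre:Sox2fl/fl), so that Cre recombinase under the mouse Gfap promoter deletes the gene of the transcription factor SOX2 in most astrocytes. The labels give the Ctrl genotype as mGfap-Cre:Sox2+/+, the design text allows either Cre or the floxed allele, and the methods describe Sox2fl/fl littermates, so the alleles that the 3 Ctrl mice carried are uncertain. The labelled age was 90 days and that in the extraction protocol 80 days. The sources used here name no hormone treatment in either group, no blood hormone level and no hour of tissue collection.

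Glucocorticoids are steroid hormones of the adrenal cortex that are released in a daily rhythm and during stress. In the cell they bind the glucocorticoid receptor, a transcription factor held by chaperones until the hormone arrives, which then enters the nucleus, binds DNA and raises or lowers the transcription of its targets. In neural tissue the mineralocorticoid receptor binds the same hormone with higher affinity, and astrocytes, oligodendrocytes, neurons and vascular cells all respond to it. Several of the classical targets limit the response itself, and others change ion transport, cell growth or fat storage.

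The deposited columns are numbered without sample names, and each library is called here by its number. The Ctrl group was formed by libraries 2, 4 and 6, and the Sox2 cKO group by libraries 1, 3 and 5, from the numbers of the mice. Sox2 itself stood at 19.9, 14.8 and 29.5 CPM (counts scaled to the size of the library) in Ctrl libraries 2, 4 and 6 and at 3.16, 2.69 and 2.98 CPM in Sox2 cKO libraries 1, 3 and 5. The groups did not overlap. The methods give each group the same number of females, but Xist, the RNA of the inactive X chromosome, exceeded 100 CPM in 2 Ctrl libraries (2 and 4) and 1 Sox2 cKO library (5), and 4 Y-linked genes were expressed in the other libraries (6, 1 and 3). The libraries held 21507911 to 28392184 counts, and the groups overlapped in depth. The tissue carried markers of astrocytes, oligodendrocytes, neurons, microglia and vessels. The summed level of 8 astrocyte markers was 6140 to 8080 CPM in Ctrl and 4240 to 4440 CPM in Sox2 cKO, and 5 of the 8 were called lower. The summed level of 4 oligodendrocyte precursor markers was 149 to 169 CPM in Ctrl and 94.3 to 123 CPM in Sox2 cKO, and all 4 were called lower. The sums of 3 other lists did not overlap either. They were 4640 to 5440 CPM in Ctrl and 5510 to 5680 CPM in Sox2 cKO for 7 neuron markers (0 called by edgeR, 2 with an unadjusted p under 0.05 and 2 called by DESeq2), and 48.1 to 56.8 and 42.6 to 45.8 CPM for 5 ependymal markers, of which 1 was called lower. For 6 neutrophil markers, of which 4 of the 5 tested were called higher, they were 9.75 to 15.6 CPM in Ctrl and 61.3, 62.7 and 20.0 CPM in Sox2 cKO libraries 1, 3 and 5. Of all genes tested, 12.4% were called lower and 12.2% higher. With the correction for gene length described below, 2 of the 8 astrocyte, 2 of the 4 precursor and 1 ependymal marker were called lower. In the same fit 3 of the 5 neutrophil markers and 1 neuron marker were called higher. That fit called 6.99% of all genes lower and 6.08% higher. The part of these cell types in the levels of the 10 genes was not tested. In RNA of a whole tissue, fewer cells of a type and less RNA per cell cannot be told apart.

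Both receptors were lower in Sox2 cKO, 1 hormone-induced regulator and 1 hormone-activating enzyme were higher, and the other 6 genes did not pass the test. Counts were compared with edgeR's quasi-likelihood test, and a gene is called where its p, adjusted by the Benjamini-Hochberg method over all 16137 genes tested, is below 0.05. Of the 10 genes, 4 were called, namely Nr3c1 and Nr3c2 as lower and Tsc22d3 and Hsd11b1 as higher. Over all genes tested, 24.6% were called, 12.2% as higher and 12.4% as lower. The groups of libraries did not overlap for those same 4 genes, and they did not overlap for 44.7% of all genes tested (22.6% higher and 22.1% lower in Sox2 cKO). With 3 libraries against 3, an exact two-sided permutation test of 1 gene cannot give a p below 0.1, and that was its value for each of the 4. The edgeR p-values rest on the spread between these mice only, and the spread of each gene was estimated partly from that of the other genes. With a correction for the trend of fold change with gene length, Tsc22d3 alone was called.

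**Figure D1:**
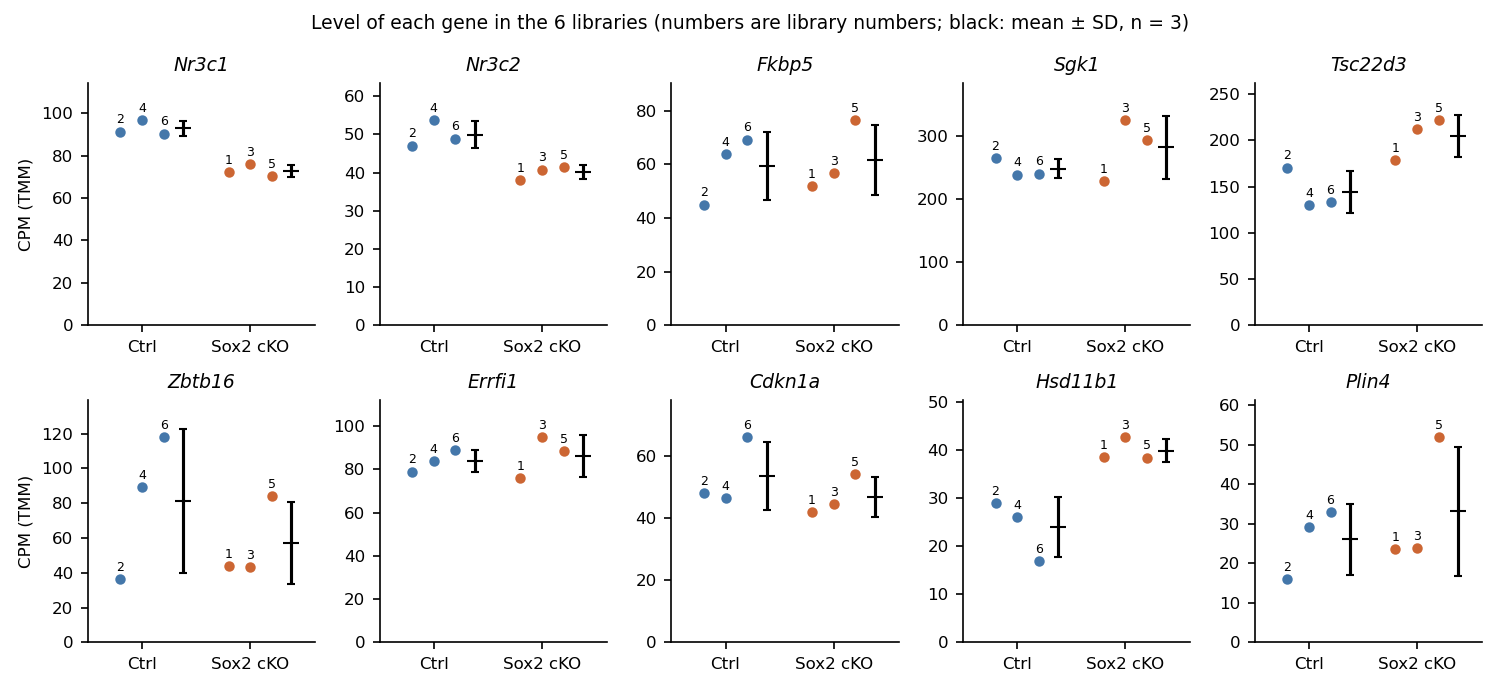
Level of each of the 10 genes in every library, in CPM after TMM scaling (vertical axis, starting at 0), with Ctrl in blue, Sox2 cKO in orange, library numbers above the points and the mean ± SD of each group in black (n = 3). The points of both groups are apart for Nr3c1, Nr3c2, Tsc22d3 and Hsd11b1, whereas Zbtb16 ranges from 36.5 to 118 CPM within Ctrl alone.

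The 10 genes covered a wide range of levels. Per length, in FPKM (fragments per kilobase of gene length, scaled to the library total), the Ctrl mean was highest for Sgk1 at 77.4 ± 6.66 and next for Tsc22d3 at 48.6 ± 8.86 (SD, n = 3). Cdkn1a and Errfi1 followed at 27.0 ± 4.95 and 26.6 ± 0.901 FPKM, and their Ctrl libraries overlapped. Zbtb16, Fkbp5, Hsd11b1 and Nr3c1 had Ctrl means of 15.2 ± 7.47, 14.8 ± 2.84, 14.7 ± 4.14 and 13.9 ± 0.633 FPKM, and these 4 neighbours could not be ordered, because the 3 Ctrl values of each overlapped those of the others. Nr3c2 stood below them at 8.14 ± 0.522 FPKM, and of the Ctrl libraries of the 4 only 1, Zbtb16 in library 2 with 7.11 FPKM, fell below the Nr3c2 mean. Plin4 was lowest at 4.34 ± 1.41 FPKM. In each of the 6 libraries Nr3c1 exceeded Nr3c2 per length, with 11.0 to 14.5 FPKM for the first and 6.80 to 8.74 FPKM for the second.

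Promoter sequence is shown for 2 of the genes, Sgk1 because it holds the receptor's full binding sequence and Tsc22d3 because it alone of the 10 was called with the correction for gene length. The windows are the 250 bases before the annotated starts, from RefSeq on GRCm38.p6, the build that mm10 names. The glucocorticoid receptor binds as a dimer to a palindrome whose searched form was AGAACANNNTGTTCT on either strand, where N is any base. The capitals mark that element, which lies 174 bases before the start site in the Sgk1 window on the plus strand, chr10:21993640-21993889. The Tsc22d3 window lies on the minus strand, chrX:140542669-140542918, and holds no match, so it has no capitals.
Sgk1: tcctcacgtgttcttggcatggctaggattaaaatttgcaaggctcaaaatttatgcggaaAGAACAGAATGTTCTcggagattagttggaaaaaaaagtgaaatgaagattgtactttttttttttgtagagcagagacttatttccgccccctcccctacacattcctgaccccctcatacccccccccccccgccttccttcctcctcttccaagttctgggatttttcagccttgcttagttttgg
Tsc22d3: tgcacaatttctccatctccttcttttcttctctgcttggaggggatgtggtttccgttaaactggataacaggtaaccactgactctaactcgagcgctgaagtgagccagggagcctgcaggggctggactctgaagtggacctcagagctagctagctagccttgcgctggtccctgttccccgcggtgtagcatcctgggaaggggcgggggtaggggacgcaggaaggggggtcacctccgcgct

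The table of promoters held 17 windows for 8 of the 10 genes, with 6 for Sgk1 and 3 for Tsc22d3, and no window for Nr3c1 or Zbtb16. The full element was found in 1 of these 17 windows, the one printed for Sgk1, and in 3 of all 32851 windows (0.00913%). A looser form, GNACANNNTGTNC, which overlaps the full element, was found in the same Sgk1 window and in 0.387% of all windows. The single 6-base arm AGAACA, on either strand, was found in 4 of the 17 windows (23.5%) and in 16.1% of all windows. The 4 windows with this arm were 3 of Sgk1 and 1 of Tsc22d3, the latter on the minus strand at chrX:140600523-140600772. A match is a description of letters, and the absence of one says nothing of binding elsewhere, since many sites of this receptor lie far from starts.

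Nr3c1 encodes the glucocorticoid receptor itself and lies on chromosome 18 from 39410545 to 39519421 (minus strand, mm10). It stood at 91.4, 96.9 and 90.5 CPM in Ctrl libraries 2, 4 and 6 and at 72.2, 76.1 and 70.2 CPM in Sox2 cKO libraries 1, 3 and 5. The 3 Sox2 cKO values were below all 3 Ctrl values, and the spread within each group was small. The mean was 92.9 ± 3.47 CPM in Ctrl and 72.8 ± 2.98 CPM in Sox2 cKO (SD, n = 3). The log2 fold change was -0.35 (SE 0.0722) with an adjusted p of 0.0137 by edgeR, which puts Sox2 cKO at 0.784 times the Ctrl level.

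Nr3c2 encodes the mineralocorticoid receptor, the higher-affinity receptor for the same hormone, on chromosome 8 from 76899442 to 77245012 (plus strand). Its levels were 47.1, 53.8 and 48.9 CPM in the Ctrl libraries and 37.99, 40.7 and 41.5 CPM in the Sox2 cKO libraries, in the order of libraries used above. Again no library of one group reached the other group. Means of 49.9 ± 3.48 and 40.1 ± 1.84 CPM (SD, n = 3) gave a log2 fold change of -0.32 (SE 0.0850), with an adjusted p of 0.0257 by edgeR. The receptors therefore differed between the groups by a similar factor, 0.784 for Nr3c1 and 0.803 for Nr3c2.

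Both receptor transcripts are long, and the fold change across all genes depended on length. The gene length implied by the counts and FPKM values was 6436 bases for Nr3c1 and 5916 bases for Nr3c2, against a median of 3060 bases over the genes tested. When the tested genes were divided into 5 groups by length, the longest group (from 4869 bases) had 35.9% of its genes called lower and 1.73% called higher. In the shortest group (up to 1708 bases) 30.4% were called higher, and in the middle group (2615 to 3544 bases) 8.24% were called higher and 7.03% lower. The median log2 fold change was -0.25 in the longest group and 0.30 in the shortest. A fit with the length trend of each library removed called 13.1% of all genes (6.08% higher and 6.99% lower). In that fit Nr3c1 had a log2 fold change of -0.11 (SE 0.0681, adjusted p = 0.271 by edgeR) and Nr3c2 had -0.11 (SE 0.0670, adjusted p = 0.281 by edgeR), so that neither receptor was called. Whether the trend with length arose in the tissue or in the libraries was not tested.

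**Figure D2:**
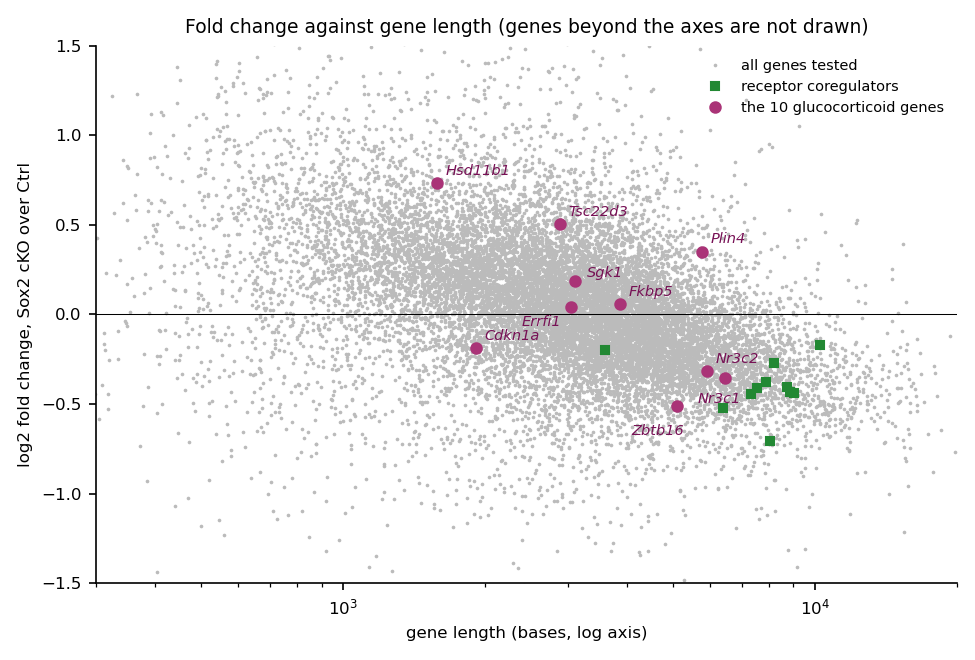
Log2 fold change (Sox2 cKO over Ctrl, vertical axis) against gene length in bases (log axis) for all genes tested in grey, the 10 genes in purple and 11 receptor coregulators in green. The receptors, Zbtb16, Plin4 and 10 of the coregulators lie at the long end, where the grey points are centred below 0 (median -0.25 from 4869 bases up). Plin4 lies above 0 there, at 0.35. Hsd11b1 lies at the short end, where the median is 0.30.

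Tsc22d3, also called Gilz, encodes a leucine zipper protein that is induced by glucocorticoids and restrains inflammatory transcription. The gene lies on the X chromosome from 140539528 to 140600659 (minus strand). It stood at 170, 130 and 133 CPM in Ctrl libraries 2, 4 and 6 and at 179, 212 and 222 CPM in Sox2 cKO libraries 1, 3 and 5. All Sox2 cKO libraries were above all Ctrl libraries, although Ctrl library 2 and Sox2 cKO library 1 were close. The mean was 144 ± 22.5 CPM in Ctrl and 204 ± 22.7 CPM in Sox2 cKO (SD, n = 3), and the log2 fold change was 0.50 (SE 0.123, adjusted p = 0.0199 by edgeR), or 1.42-fold. With a length of 2876 bases, near the median, Tsc22d3 was the 1 gene of the 10 still called after the length correction (log2 fold change 0.45, SE 0.111, adjusted p = 0.0319 by edgeR). The gene is X-linked and the groups differ in Xist. Among libraries with high Xist they were 170 and 130 CPM in Ctrl and 222 CPM in Sox2 cKO, and among the others 133 CPM in Ctrl and 179 and 212 CPM in Sox2 cKO. Because the groups do not overlap, the direction within each set of libraries was fixed, and the part of sex in the difference was not tested.

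The 3 paralogs of Tsc22d3 were tested beside it. None of Tsc22d1, Tsc22d2 and Tsc22d4 was called by edgeR or DESeq2, and none had an unadjusted p under 0.05. Their log2 fold changes were 0.14, -0.16 and 0.16, with a median of 0.14, against 0.50 for Tsc22d3. After the length correction Tsc22d1, whose length is 4999 bases, was called higher (log2 fold change 0.28, adjusted p = 0.0423 by edgeR).

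Hsd11b1 encodes 11-beta-hydroxysteroid dehydrogenase type 1, the enzyme that regenerates active corticosterone from its inactive form inside cells, on chromosome 1 from 193221634 to 193264075 (minus strand). Its levels were 28.9, 26.0 and 16.9 CPM in Ctrl libraries 2, 4 and 6 and 38.5, 42.6 and 38.3 CPM in Sox2 cKO libraries 1, 3 and 5. The Sox2 cKO libraries were close to each other and all higher, and Ctrl library 6 was the lowest. The mean was 23.9 ± 6.25 CPM in Ctrl and 39.8 ± 2.42 CPM in Sox2 cKO (SD, n = 3). This gave the largest difference of the 10 genes, a log2 fold change of 0.73 (SE 0.164, adjusted p = 0.0158 by edgeR), or 1.66-fold. The gene is short, at 1583 bases, and after the length correction its log2 fold change was 0.51 (SE 0.150) with an adjusted p of 0.0517 by edgeR.

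Ctrl library 6 was also lowest in markers of meningeal fibroblasts, cells of the membranes around the cord. The summed level of 6 such markers was 115 CPM in library 6, 244 to 259 CPM in the other Ctrl libraries and 194 to 223 CPM in Sox2 cKO, and none of the 6 was called or had an unadjusted p under 0.05 by edgeR, with 0 called by DESeq2. Summed, 5 Schwann cell markers were likewise lowest in library 6, at 125 CPM. They stood at 163 to 207 CPM in the other Ctrl libraries and 178 to 207 CPM in Sox2 cKO, and 0 were called. Without library 6, Hsd11b1 had a log2 fold change of 0.54 and an adjusted p of 0.0402 by edgeR, in a fit that called 6.54% of genes. Of the 6 edgeR fits without a library, 3 called Hsd11b1. Without libraries 4, 1 and 3 its adjusted p was 0.0654, 0.0684 and 0.0547 by edgeR. Library 6 was also the Ctrl library without high Xist. The part of meningeal or Schwann cells in the Hsd11b1 level was not tested. Lamb3 and 4930570N18Rik lie on the opposite strand over Hsd11b1, and they reached at most 1.40 CPM and 0.0416 CPM in any library. Within libraries with high Xist, Hsd11b1 stood at 28.9 and 26.0 CPM in Ctrl and 38.3 CPM in Sox2 cKO, and within the others at 16.9 CPM and at 38.5 and 42.6 CPM. The groups do not overlap, so the direction within each set was fixed here too. The part of sex in the Hsd11b1 difference was not tested.

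The rest of the steroid-handling list held 9 genes, of which 6 could be tested and 1 was called, against 24.6% of all genes tested. Cbr1, a carbonyl reductase that acts on steroids and other substrates, stood at 46.4, 28.3 and 29.7 CPM in the Ctrl libraries and 63.1, 56.9 and 49.1 CPM in the Sox2 cKO libraries, in the same library order. The groups did not overlap, and the log2 fold change was 0.70 (adjusted p = 0.0214 by edgeR), or 0.41 after the length correction (adjusted p = 0.0686 by edgeR). H6pd, which supplies the cofactor for the 11-beta-hydroxysteroid dehydrogenase type 1 reaction, had a log2 fold change of -0.19 (adjusted p = 0.339 by edgeR). Hsd11b2, which inactivates the hormone, and Serpina6, the binding globulin of plasma, were at or near 0, with at most 0.291 and 0.0341 CPM. The median log2 fold change of the 6 genes tested was 0.09.

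**Figure D3:**
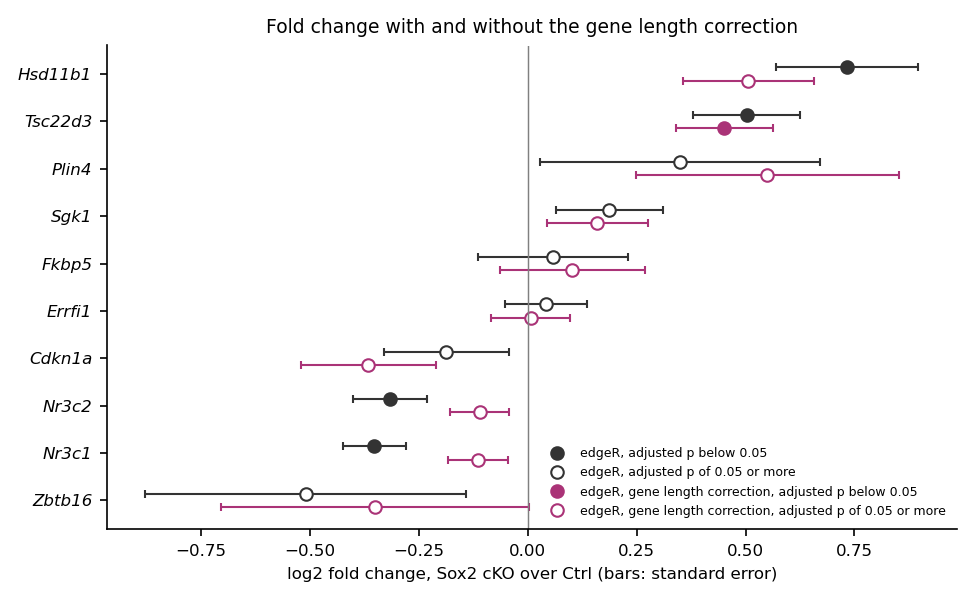
Log2 fold change of the 10 genes, Sox2 cKO over Ctrl, with standard error, before the gene length correction (black) and after it (purple), where filled points have an adjusted p below 0.05 (edgeR). Nr3c1 moves from -0.35 to -0.11 and Nr3c2 from -0.32 to -0.11, whereas Tsc22d3 moves from 0.50 to 0.45.

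Sgk1 encodes a serine/threonine kinase that is induced by both receptors and regulates ion channels and transporters, on chromosome 10 from 21882184 to 21999903 (plus strand). It stood at 265, 239 and 240 CPM in Ctrl libraries 2, 4 and 6 and at 228, 326 and 294 CPM in Sox2 cKO libraries 1, 3 and 5. Libraries 3 and 5 were above all Ctrl libraries, and library 1 was below them. The log2 fold change was 0.19 (SE 0.123, adjusted p = 0.284 by edgeR). Without library 1 it was 0.32 by edgeR (adjusted p = 0.079) and 0.31 by DESeq2 (adjusted p = 0.0218). That DESeq2 fit called 17.2% of genes, and it gave the 1 call of Sgk1 in the 21 alternatives. Without library 3 the log2 fold change was 0.07 by edgeR (adjusted p = 0.729) and 0.06 by DESeq2 (adjusted p = 0.806). Of the other SGK family members and SGK1 substrates, 7 of 9 could be tested, with a median log2 fold change of -0.05. Of these 7, 1 was called, against 24.6% of all genes tested. That gene was Wnk1, a kinase that SGK1 phosphorylates, at 429, 668 and 660 CPM in Ctrl and 321, 374 and 428 CPM in Sox2 cKO (log2 fold change -0.64, adjusted p = 0.0230 by edgeR). Wnk1 has a length of 11330 bases and was not called after the length correction (log2 fold change -0.23, adjusted p = 0.131 by edgeR). Ndrg1, the substrate by which SGK1 activity is often followed at the protein level, had a log2 fold change of -0.10 (adjusted p = 0.346 by edgeR).

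Errfi1, also called Mig6, encodes an inhibitor of the EGF receptor, on chromosome 4 from 150853919 to 150868892 (plus strand). Its levels were 78.8, 83.9 and 88.9 CPM in Ctrl and 75.8, 94.8 and 88.4 CPM in Sox2 cKO, in the same library order. The groups overlapped throughout, and the log2 fold change was 0.04 (SE 0.0943, adjusted p = 0.765 by edgeR). It was the most even of the 10 genes, with 1.25 times between its highest and lowest library.

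Cdkn1a encodes p21, an inhibitor of cyclin-dependent kinases that answers to p53 as well as to glucocorticoids, on chromosome 17 from 29090976 to 29100727 (plus strand). It stood at 48.0, 46.4 and 66.1 CPM in Ctrl libraries 2, 4 and 6 and at 42.0, 44.6 and 54.2 CPM in Sox2 cKO libraries 1, 3 and 5. Library 6 was the highest and the groups overlapped. The log2 fold change was -0.19 (SE 0.144, adjusted p = 0.358 by edgeR), and -0.37 after the length correction (SE 0.155, adjusted p = 0.134 by edgeR). Among 11 further targets of p53, 3 were called, against 24.6% of all genes tested, and the median log2 fold change was -0.11. Gadd45a, a stress-induced growth arrest gene, and Bax, a promoter of apoptosis, were higher, with log2 fold changes of 0.77 and 0.69 (adjusted p = 0.0146 and 0.0175 by edgeR). Eda2r, a receptor of the TNF receptor family, was lower at -0.87 (adjusted p = 0.0453 by edgeR), with at most 1.74 CPM in any library. None of the 3 was called after the length correction, where their adjusted p by edgeR was 0.057, 0.0977 and 0.0955.

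Fkbp5, Zbtb16 and Plin4 varied more between the mice of a group than between the groups. Fkbp5 encodes a co-chaperone that lowers the affinity of the receptor for hormone, on chromosome 17 from 28399094 to 28517527 (minus strand). It stood at 45.0, 63.7 and 69.3 CPM in Ctrl libraries 2, 4 and 6 and at 51.9, 56.7 and 76.6 CPM in Sox2 cKO libraries 1, 3 and 5. Both groups spanned nearly the same range, and the log2 fold change was 0.06 (SE 0.173, adjusted p = 0.826 by edgeR). The sign turned when library 2 was left out (-0.11) and when library 5 was left out (-0.13), with no call in either fit.

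Zbtb16 encodes PLZF, a zinc finger repressor that is among the most strongly hormone-induced genes in many tissues, on chromosome 9 from 48654297 to 48836222 (minus strand). Its levels were 36.5, 89.3 and 118 CPM in Ctrl libraries 2, 4 and 6 and 43.9, 43.2 and 84.0 CPM in Sox2 cKO libraries 1, 3 and 5. Library 2 was the lowest of all and library 6 the highest of all, so the Ctrl group alone covered the whole range. The highest Ctrl library was 3.23 times the lowest, whereas the median ratio was 1.17 over the 9995 tested genes with a mean of at least 10 CPM in Ctrl, and 0.23% of these genes had a ratio as high. The log2 fold change was -0.51 (SE 0.368, adjusted p = 0.327 by edgeR). The gene is long, at 5100 bases, and after the length correction the value was -0.35 (adjusted p = 0.521 by edgeR). Without library 2 the uncorrected log2 fold change was -0.86 with an adjusted p of 0.0281 by edgeR, against a background of 36.9% of genes called in that fit, and by DESeq2 the gene was not called in that setting.

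Plin4 encodes a perilipin, a protein on the surface of lipid droplets, on chromosome 17 from 56100591 to 56109803 (minus strand). It stood at 15.9, 29.2 and 33.0 CPM in Ctrl libraries 2, 4 and 6 and at 23.6, 23.9 and 51.9 CPM in Sox2 cKO libraries 1, 3 and 5. Library 5 was the highest and library 2 the lowest. The log2 fold change was 0.35 (SE 0.321, adjusted p = 0.444 by edgeR), and without library 5 it was -0.13. The gene is long, at 5756 bases, and with all libraries and the length correction the log2 fold change was 0.55 (adjusted p = 0.233 by edgeR). Library 5 also had the highest summed level of 6 skeletal muscle markers, 73.9 CPM, against 33.3 CPM in library 1 and 4.61 to 13.7 CPM in the other libraries, and the part of muscle in the Plin4 level was not tested. Of 7 adipocyte markers, Adipoq, Plin1, Cidec and Cfd were also highest in library 5, at 0.453, 0.189, 0.680 and 3.02 CPM, against at most 0.338, 0.102, 0.291 and 0.351 CPM in any other library. Lep and Retn reached at most 0.0483 and 0.290 CPM, and Lpl, which other cells also express, was highest in library 6. The summed level of the 7 was 17.2 to 23.7 CPM in Ctrl and 12.2 to 17.4 CPM in Sox2 cKO, with 17.4 CPM in library 5, and the part of adipocytes in the Plin4 level was not tested. Hdgfl2 overlaps Plin4 on the opposite strand and stood at 51.8 to 59.7 CPM in Ctrl and 64.6 to 75.2 CPM in Sox2 cKO, and whether the counting used strand is not given in the sources used here. Of the other 4 perilipins 3 could be tested, with 0 called by edgeR or DESeq2, 0 with an unadjusted p under 0.05, and log2 fold changes of 0.01 to 0.22.

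These 3 genes shared an order of the libraries, a pattern that was chosen after the values were seen. In each of them library 2 was the lowest and library 6 the highest of the Ctrl libraries, library 5 was the highest of the Sox2 cKO libraries, and libraries 4, 5 and 6 were all above libraries 1, 2 and 3. The order without the last condition held for 1509 of the 16137 genes tested (9.35%), and with it for 492 (3.05%). Of the 100 tested genes of the pathway lists, 9 had the whole pattern. They were 4 of the 23 other glucocorticoid-induced genes (Hif3a, Fam107a, Gpd1 and Mfsd2a), 2 of the 9 chaperones (Hsph1 and Ptges3), Ndrg1 of 7 SGK-related genes, Zmat3 of 11 targets of p53 and Tsc22d2 of 3 Tsc22d3 paralogs. Hif3a, a regulator of the hypoxia response, stood at 10.1, 17.4 and 19.7 CPM in Ctrl libraries 2, 4 and 6 and at 11.6, 12.8 and 19.0 CPM in Sox2 cKO libraries 1, 3 and 5. Tsc22d3 and Sgk1 had their highest Ctrl level in library 2, where Fkbp5, Zbtb16 and Plin4 had their lowest. Xist was high in libraries 2, 4 and 5, and the part of sex in this order of the libraries was not tested.

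Beyond the 10 genes, 100 tested genes of 11 lists around the pathway were examined, and 22 of them were called, against 24.6% of all genes tested. Of the 100, 10 were called higher and 12 lower, against 12.2% and 12.4% of all genes tested. The median log2 fold change over these 100 genes was -0.07, and it was 0.02 over all genes tested. After the length correction 11 of the 100 were called, 6 as higher and 5 as lower. That fit called 13.1% of all genes (6.08% higher and 6.99% lower).

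Of 9 chaperones and transport factors that serve the receptor before it reaches DNA, 1 was called, as lower, against 12.4% of all genes tested. The median log2 fold change of the 9 was -0.16. Hsp90aa1, the inducible HSP90 that folds the receptor, stood at 1861, 1935 and 2108 CPM in Ctrl and 1608, 1534 and 1625 CPM in Sox2 cKO, without overlap (log2 fold change -0.31, adjusted p = 0.0286 by edgeR). Fkbp4, the co-chaperone that opposes FKBP5 on the receptor, had a log2 fold change of -0.03 (adjusted p = 0.802 by edgeR). After the length correction Hsp90aa1, Stip1 and Bag1, all parts or partners of the HSP70 and HSP90 machinery, were called lower, with log2 fold changes of -0.32, -0.38 and -0.45. These were 3 of the 9, in a fit that called 6.99% of all genes lower.

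Of 11 coregulators, the proteins through which the DNA-bound receptor acts on transcription, 7 were called lower and 0 higher, with a median log2 fold change of -0.41. The share called lower was 12.4% over all genes tested and 35.9% in the longest of the 5 length groups (from 4869 bases). Med1, the Mediator subunit that nuclear receptors contact, stood at 55.5, 78.2 and 83.5 CPM in Ctrl and 43.8, 43.2 and 46.1 CPM in Sox2 cKO (log2 fold change -0.71, adjusted p = 0.0127 by edgeR). Smarca4, the ATPase of a chromatin remodelling complex, stood at 173, 226 and 229 CPM in Ctrl and 141, 142 and 154 CPM in Sox2 cKO (log2 fold change -0.52, adjusted p = 0.0146 by edgeR). Neither gene overlapped between groups. The coactivators Ncoa1, Ncoa3 and Ep300 and the corepressor Ncor1 had log2 fold changes from -0.44 to -0.41. These transcripts are long, with a median of 8024 bases over the list, and after the length correction the median was -0.10 and only Med1 (-0.39, adjusted p = 0.0331 by edgeR) and Smarca4 (-0.28, adjusted p = 0.0486 by edgeR) were called.

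**Figure D4:**
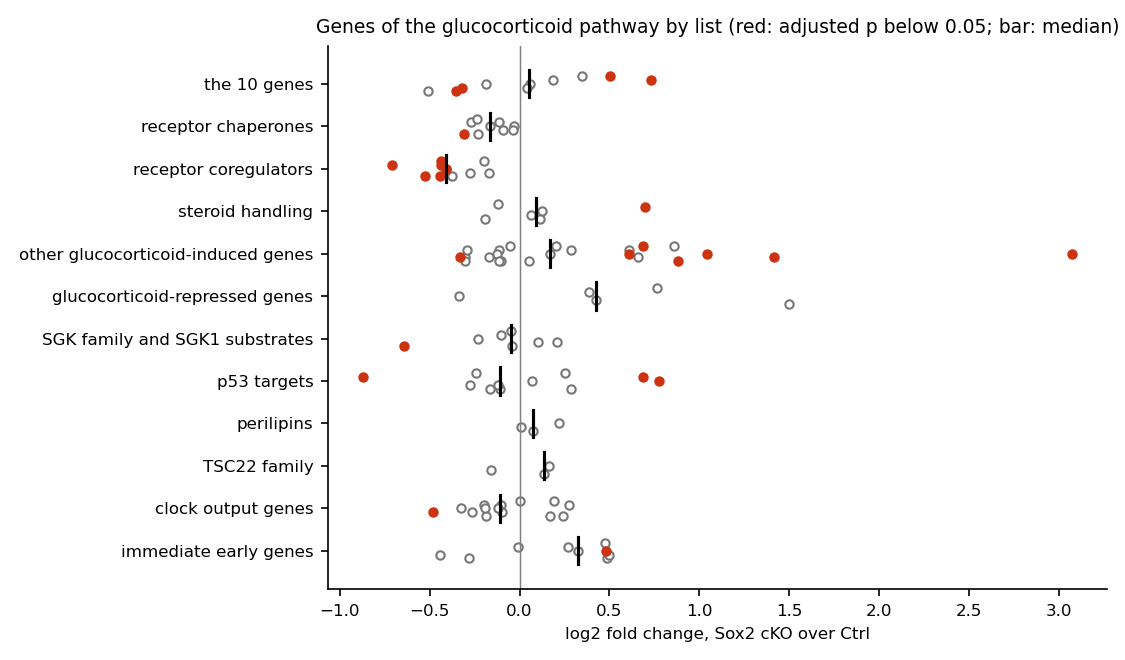
Log2 fold change (Sox2 cKO over Ctrl) of the genes tested in each list, 1 point a gene, red where the adjusted p is below 0.05 (edgeR), with the median of each list as a bar. The coregulators centre on -0.41 with 7 of 11 red, and the other glucocorticoid-induced genes spread from -0.33 to 3.07 around a median of 0.17. Over all genes tested, 24.6% were called.

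Of 23 other genes that glucocorticoids induce, 6 were called higher and 1 lower, 16 were not called, and the median log2 fold change was 0.17. Over all genes tested, 12.2% were called higher and 12.4% lower. The metallothionein genes Mt1 and Mt2, which encode metal-binding proteins abundant in astrocytes, showed the clearest difference. Mt1 stood at 354, 186 and 232 CPM in Ctrl libraries 2, 4 and 6 and at 734, 647 and 674 CPM in Sox2 cKO libraries 1, 3 and 5 (log2 fold change 1.41, SE 0.193, adjusted p = 0.0102 by edgeR). Mt2 stood at 285, 179 and 222 CPM and at 465, 436 and 512 CPM in the same order (log2 fold change 1.04, SE 0.149, adjusted p = 0.0116 by edgeR). Neither gene overlapped between groups. Both are short, at 540 and 556 bases, and both were called after the length correction, at 1.03 and 0.66. Cebpd, a transcription factor of the acute response, Arrdc2, an arrestin-domain gene, and Angptl4, an inhibitor of lipoprotein lipase, had log2 fold changes of 0.88, 0.61 and 0.69 (adjusted p = 0.0142, 0.0156 and 0.0376 by edgeR), of which Arrdc2 was called after the length correction (0.49, adjusted p = 0.0486 by edgeR). Bcl6, a transcriptional repressor, was lower at -0.33 (adjusted p = 0.0324 by edgeR), and was not called after the length correction (-0.28, adjusted p = 0.0546 by edgeR).

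Lcn2, a secreted iron-siderophore carrier made by reactive astrocytes and by neutrophils, rose most in this list but not in every mouse. It stood at 1.75, 0.748 and 1.01 CPM in Ctrl libraries 2, 4 and 6 and at 17.6, 10.5 and 1.51 CPM in Sox2 cKO libraries 1, 3 and 5. Library 5 lay within the Ctrl range, and the log2 fold change was 3.07 (SE 0.716, adjusted p = 0.0176 by edgeR). The summed level of 6 neutrophil markers was 61.3, 62.7 and 20.0 CPM in libraries 1, 3 and 5 and 9.75 to 15.6 CPM in Ctrl, and the part of such cells in the Lcn2 level was not tested.

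Well-known targets without a call included Per1, a clock gene with a receptor site, Klf9, a transcription factor, Dusp1, a phosphatase that ends MAP kinase signalling, and Glul, the astrocyte enzyme glutamine synthetase. Their log2 fold changes were -0.10, -0.30, 0.20 and -0.29 (adjusted p = 0.425, 0.144, 0.200 and 0.0706 by edgeR). Glul stood at 2302, 2554 and 2509 CPM in Ctrl and 1742, 2017 and 2261 CPM in Sox2 cKO, without overlap. Ddit4, Rasd1 and Anxa1, also not called, were higher without overlap. Their log2 fold changes were 0.29, 0.66 and 0.86 (adjusted p = 0.0692, 0.0513 and 0.0983 by edgeR). Of the 23 genes, 13 had an unadjusted p under 0.05 by edgeR. The groups did not overlap for 11 of the 23, against 44.7% of all genes tested.

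Of 9 genes that glucocorticoids repress, 5 could be tested. None was called by edgeR or DESeq2, and 1 had an unadjusted p under 0.05. Il1b, Il6, Tnf and Ccl2, genes of inflammatory signals, were below the filter, with at most 0.583 CPM in any library, so no difference in them was detectable at this depth. Among 14 genes of the circadian clock and its output, 1 was called, against 24.6% of all genes tested. It was the core activator Clock, lower at -0.48 (adjusted p = 0.0148 by edgeR) with a length of 7478 bases, and -0.20 after the length correction (adjusted p = 0.0762 by edgeR). Per1, Per2, Per3, Nr1d1 and Dbp, which cycle over the day, had log2 fold changes from -0.20 to 0.19. After the length correction Per3 was called higher (0.38, adjusted p = 0.0495 by edgeR), and Per2 and Dbp had 0.39 and -0.38 (adjusted p = 0.083 and 0.102 by edgeR). Among 9 immediate early genes, which respond to recent activity and stress, 1 was called, again against 24.6% of all genes tested. It was the nuclear receptor gene Nr4a1, higher at 0.48 (adjusted p = 0.0452 by edgeR), at 7.40, 6.40 and 5.36 CPM in Ctrl and 9.66, 9.04 and 8.12 CPM in Sox2 cKO. It was not called after the length correction (0.38, adjusted p = 0.0961 by edgeR). Fos and Egr1 had log2 fold changes of 0.49 and -0.01 (adjusted p = 0.0759 and 0.969 by edgeR).

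The calls of the 10 genes depended on single libraries and on the tool. DESeq2 on all libraries called the same 4 genes, against 27.7% of the genes it tested (12.7% higher and 15.0% lower). Limma on log2(FPKM + 1) and on log2(FPKM + 0.1) called Tsc22d3 and Hsd11b1 only, against 24.3% and 23.8% of genes, and with no filter on low values it called 0 of the 10 (4 with an unadjusted p under 0.05), against 0.0286% of genes. With edgeR, leaving out Ctrl library 2 gave 5 calls, the 4 genes and Zbtb16 (36.9% of genes called). Nr3c1 and Hsd11b1 were the calls without Ctrl library 6 (6.54%) and without Sox2 cKO library 5 (16.3%), and Nr3c1 was the 1 call without Sox2 cKO library 3 (8.31%). Leaving out Ctrl library 4 (0.159% of genes called) or Sox2 cKO library 1 (0.0485%) left 0 calls among the 10, with 4 and 5 at an unadjusted p under 0.05. DESeq2 made 3 calls without Ctrl library 4 (14.5% of genes called) and 4 calls without library 2 (36.2%), 6 (17.4%), 1 (17.2%), 3 (20.7%) or 5 (23.3%). Nr3c1, Tsc22d3 and Hsd11b1 were called in all 6 of these DESeq2 fits and Nr3c2 in 4 of them. The direction of these 4 genes was the same under all 21 alternatives. Because their groups do not overlap, that outcome was fixed in advance for the fits without a library. The other alternatives used the same 6 libraries.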

How the data were processed

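Poly(A) RNA of the spinal cord of 3 Sox2 cKO and 3 Ctrl mice was sequenced. Single-end reads were aligned by the authors to mm10 (STAR 2.5) and counted per gene (HTSeq 0.6.1), and the raw counts were deposited. They also deposited FPKM values made from these counts, the length of each gene and the library total. The implied lengths were whole numbers (within 0.05 base) for all 24442 genes with a count. The library kit keeps strand, and the strand setting of the counting is not given in the sources used here. According to the labels the RNA integrity number exceeded 6.8, and the methods give a higher minimum. Columns were grouped by mouse number, it is not known which replicate each one is, and 0 columns of per-sample values were left unused. Libraries held 21507911 to 28392184 counts.

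Gene names and positions came from GENCODE M21 (GRCm38, the build of mm10), which matched 34490 of 35275 identifiers. The test of counts was that of edgeR 4.0.16 in R 4.3.3 (filterByExpr, TMM, quasi-likelihood test, no covariates, Benjamini-Hochberg adjustment at 0.05). CPM are counts scaled to the TMM-adjusted library size. Alternatives were DESeq2 1.42.0, RLE and upper quartile factors, no filter, at least 10 counts in every library, limma 3.58.1 on log2 FPKM with pseudocounts of 1 and 0.1 (mean FPKM of at least 0.5) and without that filter, an offset removing the lowess trend (span 0.3) of each library with gene length, and each library left out. DESeq2 was also run without each library, a choice made after seeing the data. The fits were tested on simulated data with known changes. The simulation gave all genes and libraries the same spread, so it cannot say how far calls in these data depend on single libraries. Promoter windows were searched for motifs as spelled in the text.

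The 10 genes and the lists around them were chosen with earlier results of these data known. Named besides the 10 are Sox2, up to 6 called genes of each list, and genes that explain the role of one of the 10. Other genes were named after their values were seen, and 1 gene that the rule would name is not reported here. The markers and pathway genes were counted without any set test. 1 listed marker, Lhfpl3, was not matched by symbol.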

Additional observations from a re-analysis of the deposited data

How the results depend on the processing

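The 4 calls among the 10 genes held with DESeq2, with RLE or upper quartile factors, with no filter on low counts and with at least 10 counts in every library. They fell to 2 with limma on log2(FPKM + 1) and on log2(FPKM + 0.1), to 0 with limma without a filter, and to 1 with the gene length correction. Leaving out each library gave 0 to 5 calls with edgeR and 3 to 4 with DESeq2. Calls over all genes went from 3970 to 7 with limma without a filter and to 2109 with the length correction, and ranged from 8 to 6119 (edgeR) and from 1981 to 5624 (DESeq2, with 2290 without Ctrl library 6 and 2342 without Sox2 cKO library 1) when a library was left out. The counts split into 1962 higher and 2008 lower, but 2670 and 915 with limma on log2(FPKM + 1) and 2614 and 896 on log2(FPKM + 0.1). The 22 calls in the gene lists went to 0 and to 11 under the same 2 alternatives (37 with an unadjusted p under 0.05 by limma), and ranged from 1 to 36 (edgeR) and from 16 to 40 (DESeq2) without a library. The cause of these shifts was not tested.

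The log2 fold change turned sign only in fits without a library, over ranges of -0.13 to 0.18 (edgeR) and -0.14 to 0.17 (DESeq2) for Fkbp5 (-0.12 by DESeq2 without Ctrl library 2), -0.03 to 0.13 and -0.05 to 0.12 for Errfi1 (-0.01 in that same fit), and -0.13 to 0.55 and -0.15 to 0.54 for Plin4, and none of these genes was called in any of the 21 alternatives.

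No paired analysis was possible because the columns carry no replicate numbers. Sex was not used as a covariate.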
